A study of Mus musculus with 2 samples.

Results

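Among nuclei of the mouse thalamus, 597 glutamatergic nuclei carrying Nox4, Kcp, Adgrg6, Dkk2 or Qrfpr in combination were examined. A nucleus was a member if it had at least 1 unique molecular identifier (UMI, 1 counted RNA molecule) of the vesicular glutamate transporter genes Slc17a6 and Slc17a7 and none of the GABA-synthesis genes Gad1 and Gad2. It also had to hold at least 3 summed UMIs of the 5 named genes, with at least 2 of them detected. The members were 300 of 16373 kept nuclei in the sham library and 297 of 21777 in the injury library, so 597 of 38150 in all. Because measured UMIs of these 5 genes chose the members, their high levels in members are a description and were not tested.

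The sham library came from C57BL/6J females given a sham operation, and the injury library from C57BL/6J females given a cortical ablation injury, in which sensory and motor cortex is removed by surgery. All mice were 3 months old at the operation, with no transgene named in the labels, and the thalamus of the operated side was taken on day 21 and frozen. Each library pooled nuclei of 4 mice and was sorted by DNA stain, so there was 1 library per group and no measure of the spread between mice. No p-value was therefore computed, and every interval is a 95% interval for counting error only.

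As background, thalamic glutamatergic neurons send axons to the cortex and to other forebrain targets, and they are known by Slc17a6 and by the transcription factor Tcf7l2. The genes of the rule act at the cell surface or in oxidant chemistry. NOX4 is an NADPH oxidase that makes hydrogen peroxide, KCP is a secreted protein that modulates BMP signalling, ADGRG6 is an adhesion G protein-coupled receptor best known for its role in Schwann cell myelination, DKK2 is a secreted modulator of Wnt signalling, and QRFPR is the receptor of the peptide QRFP. RXFP1, the receptor of relaxin, accompanied these genes in the marker list but was not part of the rule.

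The rule genes lie on several chromosomes of GRCm38. Nox4 is on the plus strand of chromosome 7 (87246096 to 87398710) and Kcp on the minus strand of chromosome 6 (29473162 to 29507952). Adgrg6 is on the minus strand of chromosome 10 (14402583 to 14545659). Dkk2 (132085292 to 132180304, plus strand), Qrfpr (36179424 to 36222313, minus strand) and Rxfp1 (79641611 to 79737880, minus strand) are on chromosome 3. Kcp (with Atp6v1fnb and Gm26627), Adgrg6 (with Gm46212) and Qrfpr (with Gm43255) overlap genes on the opposite strand and Rxfp1 (with Gm26984) a gene on its own strand, and whether counting used the strand is not given in the sources used here.

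The tables held 137850696 UMIs in 16390 sham barcodes and 180106314 UMIs in 21828 injury barcodes. The filter on nuclei dropped barcodes with more than 7500 genes (8 in sham, 21 in injury) or with over 2% mitochondrial UMIs (9 and 30). The libraries shared 101 barcodes, none of them among members. Scrublet calls, whose number was set by the expected rate, marked 2179 sham and 3871 injury nuclei as doublets.

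Members made up 3.46% of the sham glutamatergic gate (300 of 8677 nuclei, exact binomial interval 3.08 to 3.86) and 3.11% of the injury gate (297 of 9554, 2.77 to 3.48). These intervals overlapped. Of all kept nuclei, members made up 1.83% (1.63 to 2.05) in the sham library and 1.36% (1.21 to 1.53) in the injury library, where these intervals were apart. The denominators differ in the share of nuclei inside the gate, which was 8677 of 16373 in sham and 9554 of 21777 in injury.

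Membership moved with sequencing depth. Members had a median of 12546.5 UMIs in sham and 12828 in injury, against 9087 and 9302 UMIs in the other glutamatergic nuclei. With the gate cut into 4 groups by UMIs, the member share went from 0.922% in the shallowest sham nuclei through 2.63% and 4.29% to 6.16% in the deepest. In injury it went from 0.838% through 2.20% and 3.93% to 5.34%. When every nucleus was thinned to 3000 UMIs, 32 of 4884 gate nuclei in sham and 25 of 5354 in injury met the rule, with 2372 sham and 4260 injury nuclei too shallow to be thinned. The rule therefore missed nuclei of low depth in both libraries.

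**Figure D1:**
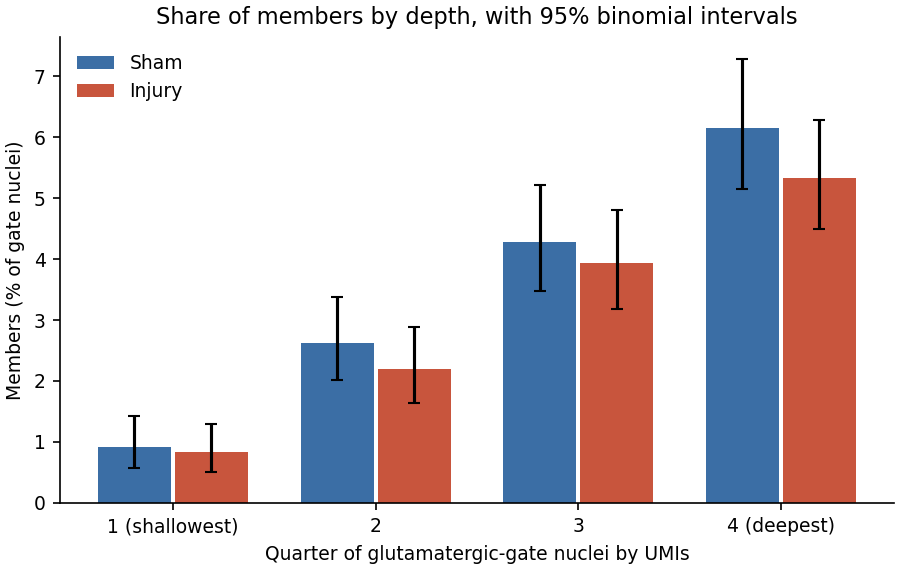
Bars give members as a percentage of glutamatergic-gate nuclei (vertical axis, from 0) in 4 groups of rising UMI number (horizontal axis), sham in blue and injury in red, with 95% binomial intervals. The share climbs from under 1% in the shallowest group to 6.16% in sham and 5.34% in injury in the deepest, and the intervals of the libraries overlap in each group.

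Members held few UMIs of the rule genes. In sham, 165 members had 2 of the 5 genes, 103 had 3, 28 had 4 and 4 had all 5. In injury, the numbers were 182, 89, 23 and 3. The median member held 5 summed UMIs in both libraries, with a maximum of 21 in sham and 34 in injury. The most frequent pair in sham was Nox4 with Kcp (116 nuclei), and in injury it was Nox4 with Adgrg6 (112 nuclei). Nox4 was detected in 76% of sham and 64.0% of injury members, Adgrg6 in 55% and 70.4%, Kcp in 52% and 44.4%, Dkk2 in 38.7% and 36%, and Qrfpr in 35.3% and 33.7%.

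Rxfp1, which the rule did not read, was compared in nuclei just inside and just outside the rule. It was named as a marker with earlier results of these data known, so these values are a description and no test. Members with exactly 3 summed UMIs had Rxfp1 at 63.3 CPM in sham and 56.6 in injury, where CPM is UMIs of the gene per 1000000 UMIs of the set of nuclei. Nuclei just outside with 2 summed UMIs from 2 different rule genes, 63 in sham and 68 in injury, had 41.2 and 24.7 CPM. Nuclei with 1 or 2 UMIs from a single rule gene, 987 and 1124 in number, had 19.9 and 19.2 CPM. Nuclei with 3 or more UMIs from a single rule gene, also outside, numbered 170 and 210 and had 30.4 and 30.8 CPM. Levels were flat within the rule up to 9 summed UMIs, with 54.6 and 55.8 CPM in members with 4 and 66.7 and 58.1 CPM in those with 5 to 9. At the ends, nuclei without any rule UMI had 16.5 and 14.2 CPM, and members with 10 or more had 96.8 and 122 CPM.

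The neuronal label was checked against markers outside the rule. The neuron genes Rbfox3, Snap25, Syt1 and Meg3 summed to 17135 CPM in sham and 16933 CPM in injury members, against 14848 and 14735 CPM in other glutamatergic nuclei. Tcf7l2 stood at 626 and 612 CPM, against 599.8 and 574 CPM in the others. Slc32a1, the vesicular GABA transporter, was at 0 UMIs in members of both libraries, and Gad1 and Gad2 were at 0 by the rule. The glutamatergic list, which includes Slc17a6 and Slc17a7 of the gate, summed to 178 and 179 CPM in members and to 247 and 234 CPM in the others, so it was detected in members at a lower level.

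Each of the 5 rule genes was also left out in turn and read in nuclei chosen by the other 4. The genes were chosen with earlier results of these data known, so these values are a description and no test. In nuclei chosen by the other 4 genes, Nox4 stood at 156 CPM in sham (174 nuclei) against 10.9 CPM in the rest of the gate, and at 103 CPM in injury (173 nuclei) against 10.3 CPM. On the log2 scale the left-out gene exceeded the rest of the gate by 3.84 and 3.31 for Nox4, by 3.73 and 3.43 for Kcp, and by 3.51 and 2.99 for Qrfpr (sham, then injury). The difference was 2.63 and 1.93 for Dkk2 and 2.34 and 2.72 for Adgrg6. Detection of Nox4 was 58.6% and 38.2% in the chosen nuclei against 5.10% and 4.96% in the rest.

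The rule drew on more than 1 group of neurons. When the gate was clustered without the 6 marker genes, members fell into 23 of 34 clusters. A main cluster of 976 nuclei held 362 members (197 sham, 165 injury), or 60.6%. A second cluster of 792 nuclei held 95 members (46 sham, 49 injury), or 15.9%. The remaining 140 members (57 sham, 83 injury) were spread over other clusters, and 59 of all members lay in 4 clusters in which over 50% of nuclei were called doublets. Called doublets made up 21.7% of sham and 22.9% of injury members, 10.2% and 12.1% of members in the main cluster, and 68.4% and 54.2% of members outside both clusters. Among its 14 nearest neighbours a member had a median of 7 other members in sham and 5 in injury. There were 24 sham and 45 injury members with 0 such neighbours. For the other gate nuclei the mean, a different measure from the median, was 0.281 and 0.293.

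The main cluster carried all 6 markers. Its leading genes were the organic anion transporters Slco1a5 and Slco1a6, followed by Nox4, Kcp, Qrfpr and Ros1. Over all its nuclei, whether members or not, Nox4 stood at 163 CPM in sham and 142 CPM in injury, Kcp at 41.0 and 32.1 CPM, Dkk2 at 37.6 and 28.4 CPM, and Rxfp1 at 61.4 and 66.0 CPM. The potassium channel gene Kcnk13, which was no part of the rule, stood at 108 and 103 CPM, against 14.7 and 19.0 CPM in other glutamatergic nuclei.

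The second cluster differed from it. Its leading gene was Calca, which encodes the neuropeptide CGRP, followed by Pik3ap1 and Klhl14. Calca was sparse, with 79 UMIs in 431 sham nuclei (15.9 CPM) and 32 UMIs in 361 injury nuclei (7.69 CPM). Klhl14 stood at 70.8 and 73.3 CPM. The second cluster held Adgrg6 at 75.8 CPM in sham and 93.9 CPM in injury, but Nox4 at 11.3 and 11.5 CPM and Dkk2 at 5.24 and 4.32 CPM. Kcnk13 was at 1.61 and 4.56 CPM there. The name by Nox4 and Adgrg6 together thus described the main cluster, and the second cluster held Adgrg6 with little Nox4.

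**Figure D2:**
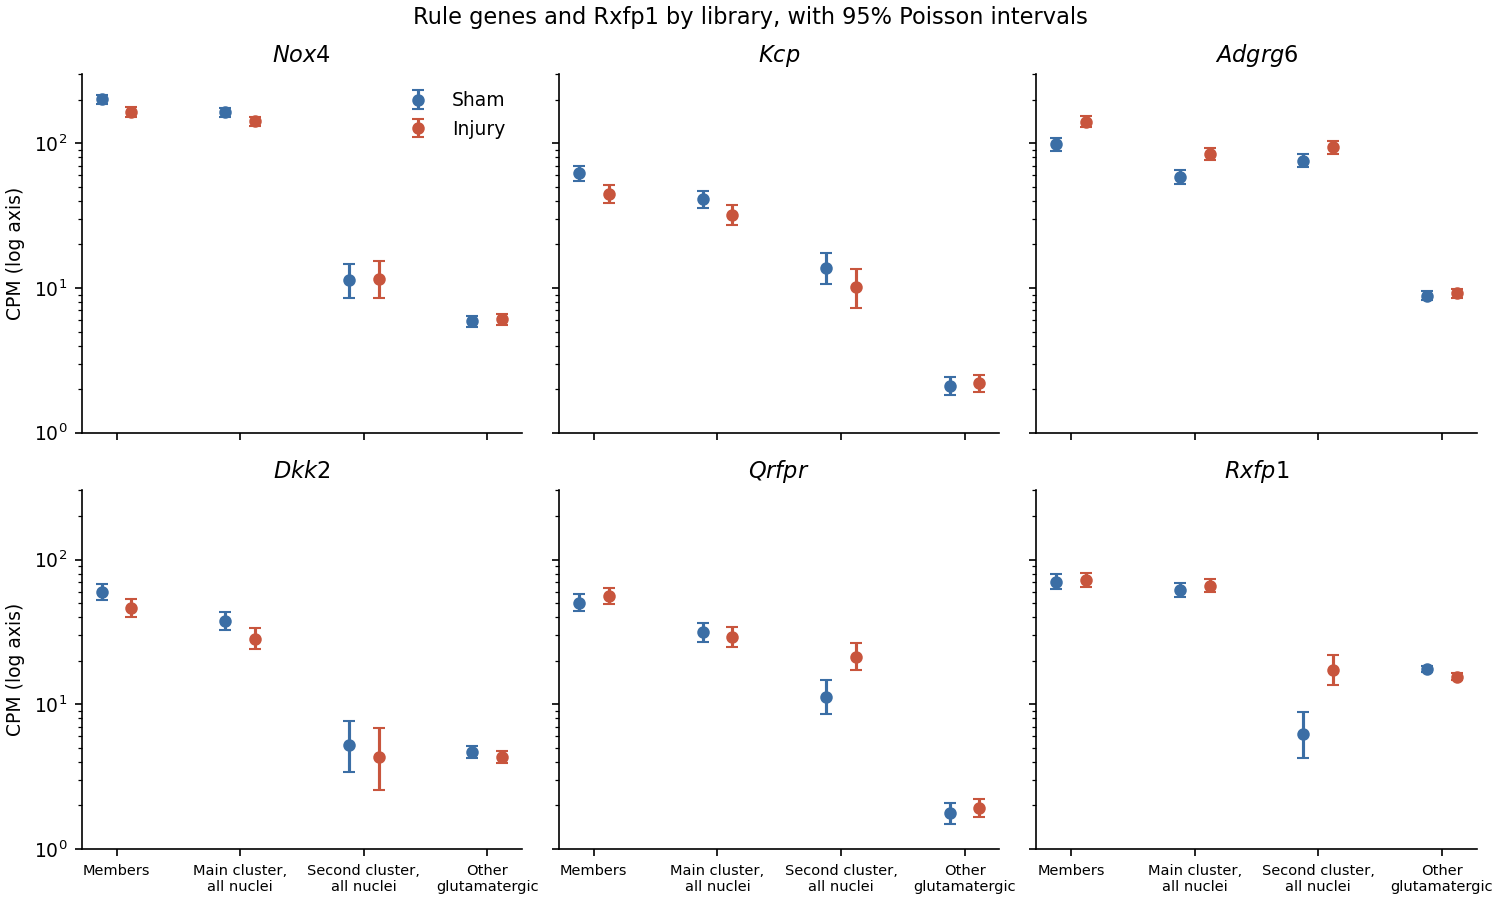
Points give CPM on a log axis, with 95% Poisson intervals, for the 5 rule genes and Rxfp1 in sham (blue) and injury (red) in 4 sets of nuclei along the horizontal axis: members, all nuclei of the main cluster, all nuclei of the second cluster, and other glutamatergic nuclei (gate nuclei that are no members). Adgrg6 is near 75.8 to 93.9 CPM in the second cluster, where Nox4 is near 11.3 CPM, while the main cluster holds both.

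At a finer resolution, with the whole gate clustered anew, the main cluster parted further. The finer clusters with the most of its members are described here as branches, and they do not hold all of its nuclei. One branch with 180 members (355 nuclei) held the neurotrophin gene Ntf3 at 25.9 CPM in sham and 30.3 CPM in injury, Angpt1 at 238 and 186 CPM and Qrfpr at 58.8 and 52.0 CPM. The other with 164 members (369 nuclei) held Ntf3 at 1.13 and 0.511 CPM, Angpt1 at 10.7 and 26.6 CPM and Qrfpr at 14.1 and 7.67 CPM. In the reverse direction, the glypican gene Gpc5 stood at 458 and 458 CPM in the first branch and at 2513 and 2089 CPM in the second, and the laminin gene Lama1 at 3.76 and 3.03 CPM against 105 and 71.6 CPM. Rxfp1 was alike in the branches, at 67.7 and 74.2 CPM against 81.7 and 82.8 CPM. Nox4 stood at 183 and 121 CPM against 230 and 227 CPM, so both carried the gene that names the nuclei.

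Beyond the rule genes, 206 of 8356 genes with at least 100 UMIs were higher in members than in other glutamatergic nuclei by 0.5 or more on the log2 scale in both libraries (2.47%), and 266 were lower by as much (3.18%). Ros1, an orphan receptor tyrosine kinase, had 14.2 CPM in sham and 15.2 in injury members against 1.49 and 1.72 CPM in the others, log2 ratios of 3.25 and 3.14. Hs3st3a1 and Hs3st3b1, which add 3-O-sulfate to heparan sulfate, had log2 ratios of 2.92 and 3.20, and of 2.30 and 2.24. Gxylt2, a xylosyltransferase that acts on Notch EGF repeats, followed with 2.75 and 2.38.

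Among receptor genes of the 25 highest, Rxfp1 had 70.4 CPM in sham and 72.4 in injury members against 17.6 and 15.5 CPM in the others, log2 ratios of 2.0 (interval 1.82 to 2.18) and 2.22 (2.04 to 2.40). Lepr, the leptin receptor, had 30.4 and 33.1 CPM against 7.71 and 9.07 CPM. Alk, a receptor tyrosine kinase of neurons, had 439 and 544 CPM against 174 and 200.4 CPM. Alk and Rxfp1 were both lower in the second cluster (71.0 and 6.25 CPM in sham) than in the main cluster (437 and 61.4 CPM).

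Among channel and calcium genes, Kcnk13, a K2P leak channel, had 99.1 CPM in sham and 74.0 in injury members, log2 ratios over the others of 2.75 and 1.96. Slc24a4, a sodium, calcium and potassium exchanger, had ratios of 2.32 and 1.5, and Calb1, the calcium buffer calbindin, ratios of 1.30 and 1.32. Over all nuclei Calb1 stood at 183 and 179.8 CPM in the main and 110.1 and 125 CPM in the second cluster, and in their members at 197 and 184 CPM and at 187 and 185 CPM.

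Adhesion and matrix genes among the 25 highest were Jam2 (ratios 1.84 and 1.92), Lama1 (1.86 and 1.65), Egflam (1.54 and 1.59), Dsc2 (1.54 and 1.37), Angpt1 (1.58 and 1.41) and Gpc5 (1.52 and 1.23). Egflam, which encodes the matrix protein pikachurin, was the reverse of Lama1 between clusters, with 94.9 and 84.5 CPM in members of the second cluster against 17.9 and 17.2 CPM in members of the main cluster. Gm20713 (1.54 and 1.21) lies inside Gpc5 on the opposite strand, so its reads and those of Gpc5 cannot be told apart without strand. The rest of the 25 were Irf5, Sertm1, Rbm20, Tom1l1, Sox13, Pdzrn3, E2f7 and Phldb2, with ratios from 1.19 to 2.59.

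Among the 10 lowest genes, Gfra1, the GDNF co-receptor, had 15 CPM in sham and 26.1 in injury members against 71.4 and 112 CPM in the others. Adamts19, a secreted protease, had log2 ratios of -2.31 and -2.22, Nfib, a transcription factor, ratios of -1.92 and -2.15, and Dach1 ratios of -1.77 and -1.88. The others were D130079A08Rik, Scube1, D130009I18Rik, Tspear, Nwd2 and Ror1. Dach1 and Gfra1 were higher in the members outside the main and second clusters. Dach1 stood at 8.97 and 2.40 CPM in main-cluster members but at 139.7 and 115.5 CPM in members outside both clusters.

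**Figure D3:**
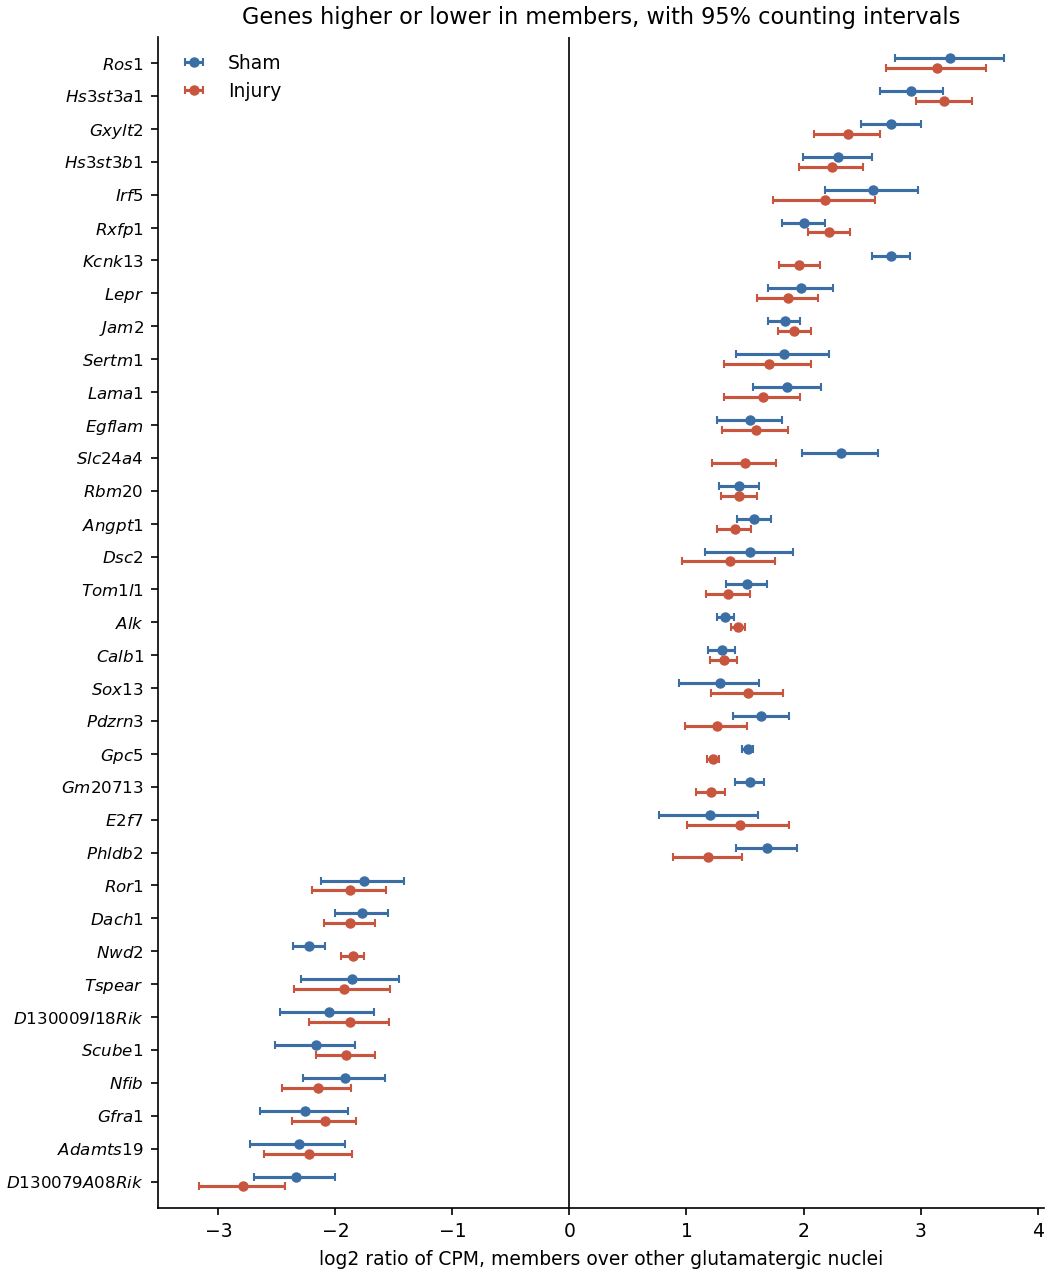
Points give the log2 ratio of CPM in members over other glutamatergic nuclei (horizontal axis) for the 25 genes highest and the 10 lowest by rank (vertical axis), sham in blue and injury in red, with 95% counting intervals. Ratios run from 3.25 for Ros1 to -2.79 for D130079A08Rik, and the sham and injury intervals are apart for Kcnk13, Slc24a4, Gpc5, Gm20713 and Nwd2.

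In the families of the rule genes, counts stand beside 2.47% higher and 3.18% lower over all genes. Of 15 genes of the NADPH oxidase family 3 had 100 UMIs, of which Nox4 alone passed the fold in members. Cyba, the partner subunit of NOX4, was at 0 UMIs in members of both libraries, where 3 UMIs would be 0.723 CPM in sham and 0.700 CPM in injury. Of 18 tested genes of the BMP pathway Kcp alone was higher, and of 11 tested adhesion receptors Adgrg6 alone. Of 21 tested Wnt genes Dkk2 was higher, and Wnt5b, Lgr4 and Ror1 were lower. The ligands Qrfp, Rln1 and Rln3 had at most 1 UMI in members of either library. The counts of higher genes in these families include the rule genes, whose levels chose the nuclei.

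Transmitter receptors differed in a limited set of genes. The counts by list stand beside 2.47% higher and 3.18% lower over all genes. Of 41 amine and acetylcholine receptors 13 were tested. The muscarinic receptors Chrm2 and Chrm3 and the serotonin receptor Htr7 were higher in members, while Htr2c was lower. Chrm2 had 396 CPM in sham and 394 in injury members against 213 and 166 CPM in the others. Htr2c had 134 and 146 CPM against 369 and 303 CPM. Of 23 tested glutamate receptors Grm5, a metabotropic receptor, was higher (2121 and 1817 CPM against 1184 and 1140 CPM), and Gria3, Grin2a, Grin2c and Grik3 were lower. Of 18 tested GABA and glycine receptors Gabrg1, Gabrg3 and Glra2 were higher and Gabrd and Glra1 lower.

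Of 30 tested firing channels Kcnq5 was higher in members (949 CPM in sham and 845 CPM in injury against 560 and 584 CPM), and Kcnn2, a calcium-activated potassium channel, was lower (163 and 201 CPM against 303 and 297 CPM). Of 46 tested axon guidance and adhesion genes 6 were higher (Robo2, Dcc, Cdh7, Cdh18, Pcdh15 and Pcdh19) and 7 lower (Slit2, Plxna4, Nrp2, Epha4, Ephb1, Cdh6 and Cdh13), beside 2.47% higher and 3.18% lower over all genes. Cdh18, a cadherin, had 2062 and 1807 CPM against 973 and 873 CPM. Robo2, a receptor of SLIT ligands, had 618 and 567 CPM against 328 and 343 CPM, while the ligand gene Slit2 had 38.1 and 68.6 CPM against 139 and 156 CPM. Of 11 tested genes of the axon injury and stress list, Gap43 and Klf6 were higher in members and none lower, with Gap43 at 389 and 360.2 CPM against 215 and 189 CPM.

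Of 16 tested genes of thalamic identity, Calb1 was higher in members and Foxp2, Prkcd, Cdh6 and Slc17a7 were lower, beside 2.47% higher and 3.18% lower over all genes. Prkcd had 56.2 CPM in sham and 52.5 in injury members against 178 and 173 CPM. Foxp2 had 305 and 316 CPM against 574 and 536 CPM. Rorb, listed with the cortex genes and also used by relay neurons, had 195 and 225 CPM against 484 and 428 CPM.

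Levels were also read in 3 other glutamatergic sets chosen in the same way, each after members were left out. The choice of members fixes that rule genes are low in these sets, so their values are a description. Nox4 was at 4.47 CPM in sham and 3.65 CPM in injury in nuclei with Lypd6b and Hpse2 (142 and 218 nuclei), at 1.14 and 2.36 CPM in nuclei with Col12a1 and Ror1 (513 and 520), and at 3.71 and 5.95 CPM in nuclei with Adamts9 and Crybg1 (71 and 81). Rxfp1, free of the rule, was at 8.76 to 9.51 CPM, 19.2 to 19.98 CPM and 9.63 to 10.7 CPM in these sets. Alk did not mark members alone, with 432 and 429 CPM in the Lypd6b and Hpse2 nuclei. Gpc5 did not either, at 1090.2 and 1088 CPM in the Col12a1 and Ror1 nuclei against 965 and 834 CPM in members. Of the members, 11 also met the rule for Col12a1 and Ror1, and 2 that for Adamts9 and Crybg1.

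To ask how the members differed after cortical injury, the libraries were compared first for the rule genes, for which levels in members depend on the choice itself. In members Adgrg6 was higher in injury and Nox4, Kcp and Dkk2 were lower. Adgrg6 had 98.1 CPM in sham and 141 in injury (407 and 606 UMIs), a log2 ratio of 0.53 (interval 0.34 to 0.71). Nox4 had 202 and 165 CPM, a ratio of -0.29 (-0.44 to -0.15), Kcp 62.0 and 44.8 CPM (-0.47, interval -0.74 to -0.19), and Dkk2 59.8 and 46.5 CPM (-0.36, -0.64 to -0.09). Qrfpr and Rxfp1 had ratios of 0.16 (-0.11 to 0.43) and 0.04 (-0.20 to 0.27), with intervals that include 0.

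The same differences were read in all nuclei of the main cluster, which these 6 genes did not define. There Adgrg6 had 58.8 CPM in sham and 84.5 in injury, a log2 ratio of 0.52 (0.31 to 0.74), Nox4 a ratio of -0.20 (-0.34 to -0.06), Kcp -0.35 (-0.65 to -0.05) and Dkk2 -0.40 (-0.72 to -0.09). The finer branches described above did not share these lower values evenly. In the branch with Ntf3 (sham, then injury), Nox4 had 183 and 121 CPM, Dkk2 46.1 and 24.7 and Kcp 39.1 and 37.3. In the branch with more Gpc5, Nox4 had 230 and 227 CPM, Dkk2 50.7 and 49.1 and Kcp 67.6 and 44.0. Whether the branches differ was not tested. In nuclei of the main cluster that had no UMI of an oligodendrocyte list and were not called doublets, the ratio of Adgrg6 was 0.33 (0.03 to 0.62), and in such members it was 0.25 (-0.01 to 0.52). In other glutamatergic nuclei Adgrg6 stood at 8.86 and 9.18 CPM, a ratio of 0.05 (-0.09 to 0.19).

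Over all nuclei of the second cluster Adgrg6 had a ratio of 0.31 (0.10 to 0.52), Qrfpr one of 0.92 (0.42 to 1.43; 11.3 and 21.4 CPM) and Rxfp1 one of 1.47 (0.84 to 2.13), from 31 UMIs in sham to 72 in injury. These Rxfp1 UMIs came from 18 of 431 sham and 27 of 361 injury nuclei, with 19.4% and 11.1% of them from 1 nucleus. Kcp (-0.44, interval -1.03 to 0.13), Dkk2 (-0.28, -1.23 to 0.64) and Nox4 (0.03, -0.56 to 0.61) had intervals that include 0 there. Whether the clusters differ in their response was not tested, as each has 1 library per group.

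Of 8356 genes with at least 100 UMIs in members over both libraries, 180 were higher in injury by 0.5 or more on the log2 scale (2.15%) and 287 were lower by as much (3.43%), 467 in all (5.59%). With median-of-ratios scaling the split was 234 higher and 227 lower. In the other glutamatergic nuclei, which hold more UMIs, 59 (0.706%) and 72 (0.862%) of the same genes passed, 131 in all (1.57%). Counting intervals excluded 0 for 802 genes higher (9.6%) and 854 lower (10.2%) in members. Over all nuclei of the main cluster, 148 of 9123 genes were higher by 0.5 (1.62%) and 305 lower (3.34%). The median ratio over the 8356 genes was -0.01 in members.

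Among the genes higher in injury, Creb5, a transcription factor that binds cyclic AMP response elements, stood first. It had 9.89 CPM in sham and 40.2 in injury members (41 and 172 UMIs), and was detected in 20 of 300 and 81 of 297 nuclei. Its log2 ratio was 2.02 (interval 1.52 to 2.55), against 1.42 (1.31 to 1.52) in other glutamatergic nuclei. In all nuclei of the main cluster it went from 34 to 204 UMIs, a ratio of 2.63 (2.10 to 3.20). Creb5 was also abundant in oligodendrocytes, at 459 CPM in sham and 543 CPM in injury. In the 161 sham and 136 injury members without an oligodendrocyte-list UMI or a doublet call, it had 4.75 and 41.6 CPM (9 and 71 UMIs), a ratio of 3.13 (2.13 to 4.32).

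Among the other genes higher in injury, Cmss1, a nucleolar protein gene, had 235 CPM in sham and 423 in injury members, a log2 ratio of 0.85 (0.73 to 0.96). Pabpc4, a cytoplasmic poly(A)-binding protein, had 25.8 and 50.4 CPM (0.97, interval 0.63 to 1.31), and Leng9 25.1 and 55.3 CPM (1.14, 0.80 to 1.49). Lars2, the mitochondrial leucyl-tRNA synthetase, and Taco1, a translational activator of a mitochondrial oxidase subunit, had ratios of 0.78 and 0.83. Each of these 5 genes was also higher in the other glutamatergic nuclei, by 0.59 to 0.88, and in all nuclei of the main cluster, by 0.50 to 1.02. Park7, which encodes the oxidant-sensing protein DJ-1, had a ratio of 1.07 (0.52 to 1.65) in members, 0.54 (0.06 to 1.02) over the main cluster and 0.20 in the others.

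Of the other high genes, Synpr, Nwd2 and Slit2 were not higher over all nuclei of the main cluster, while Gpc3 was. Synpr, a synaptic vesicle gene, had 11.6 CPM in sham and 34.8 in injury members (1.59), but 16.8 and 14.6 CPM over the main cluster (-0.20, interval -0.67 to 0.26). In main-cluster members alone it had 6.52 and 12.9 CPM (16 and 27 UMIs), a ratio of 0.99 (0.04 to 1.98). Nwd2 (0.80 in members) had a ratio of -0.04 (-0.33 to 0.26) there and Slit2 (0.85 in members) one of -0.05 (-0.44 to 0.35). Synpr, Nwd2 and Slit2 were detected in few members, in 17 and 28 nuclei for Synpr, in 69 and 73 for Nwd2 and in 53 and 56 for Slit2. Synpr was also counted at 268 and 249.8 CPM in oligodendrocytes. More injury than sham members lay outside the main and second clusters, 83 against 57, and 54.2% and 68.4% of them were called doublets. Most member UMIs of Synpr, Nwd2 and Slit2 were in these nuclei. Of 48 sham and 149 injury UMIs of Synpr, main-cluster members held 16 and 27 and second-cluster members 4 and 1. For Nwd2 the numbers were 61 and 42, and 10 and 9, of 459 and 828 UMIs. For Slit2 they were 58 and 37, and 4 and 6, of 158 and 294 UMIs. The cause was not tested. Gpc3 had 6.99 and 18.7 CPM (1.42, interval 0.79 to 2.08), with 44.8% of its sham UMIs from 1 nucleus, and a ratio of 1.14 (0.49 to 1.81) over the main cluster. Without called doublets its ratio in members was 0.52.

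Among the 12 genes lowest in injury, Rps7 and Mrpl41, of the cytosolic and the mitochondrial ribosome, had 22.7 CPM in sham and 10.7 in injury, and 25.3 and 11.9 CPM, log2 ratios of -1.08 (-1.62 to -0.55) and -1.09 (-1.60 to -0.59). Tmsb10, an actin-binding thymosin, had a ratio of -1.15, Mlf2 of -0.92 and Zcchc18 of -0.71. Rgs11, a regulator of G protein signalling, had 101 and 60.0 CPM in members (-0.75, interval -0.98 to -0.52). All 6 were lower in the other glutamatergic nuclei too, by ratios from -0.45 to -1.07, and in the main cluster by ratios from -0.57 to -1.11.

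Matr3, Syngr3, Bche and 3110056K07Rik had ratios from -0.94 to -0.91 in members and from -0.54 to -0.48 over the main cluster. For Bche, which encodes butyrylcholinesterase, the value in the other nuclei was -0.10 (-0.22 to 0.01). The 3110056K07Rik gene overlaps Psma3 on the opposite strand. Col11a1 (38.8 CPM in sham, 15.2 CPM in injury, -1.36) and the noncoding gene Otx2os1, which overlaps Otx2 on the opposite strand (32.1 and 14.2 CPM, -1.17) had main-cluster ratios of 0.14 (-0.26 to 0.53) and -0.05 (-0.38 to 0.27), which include 0. In main-cluster members alone Otx2os1 had a ratio of -0.92 (-1.47 to -0.40), from 98 to 44 UMIs.

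**Figure D4:**
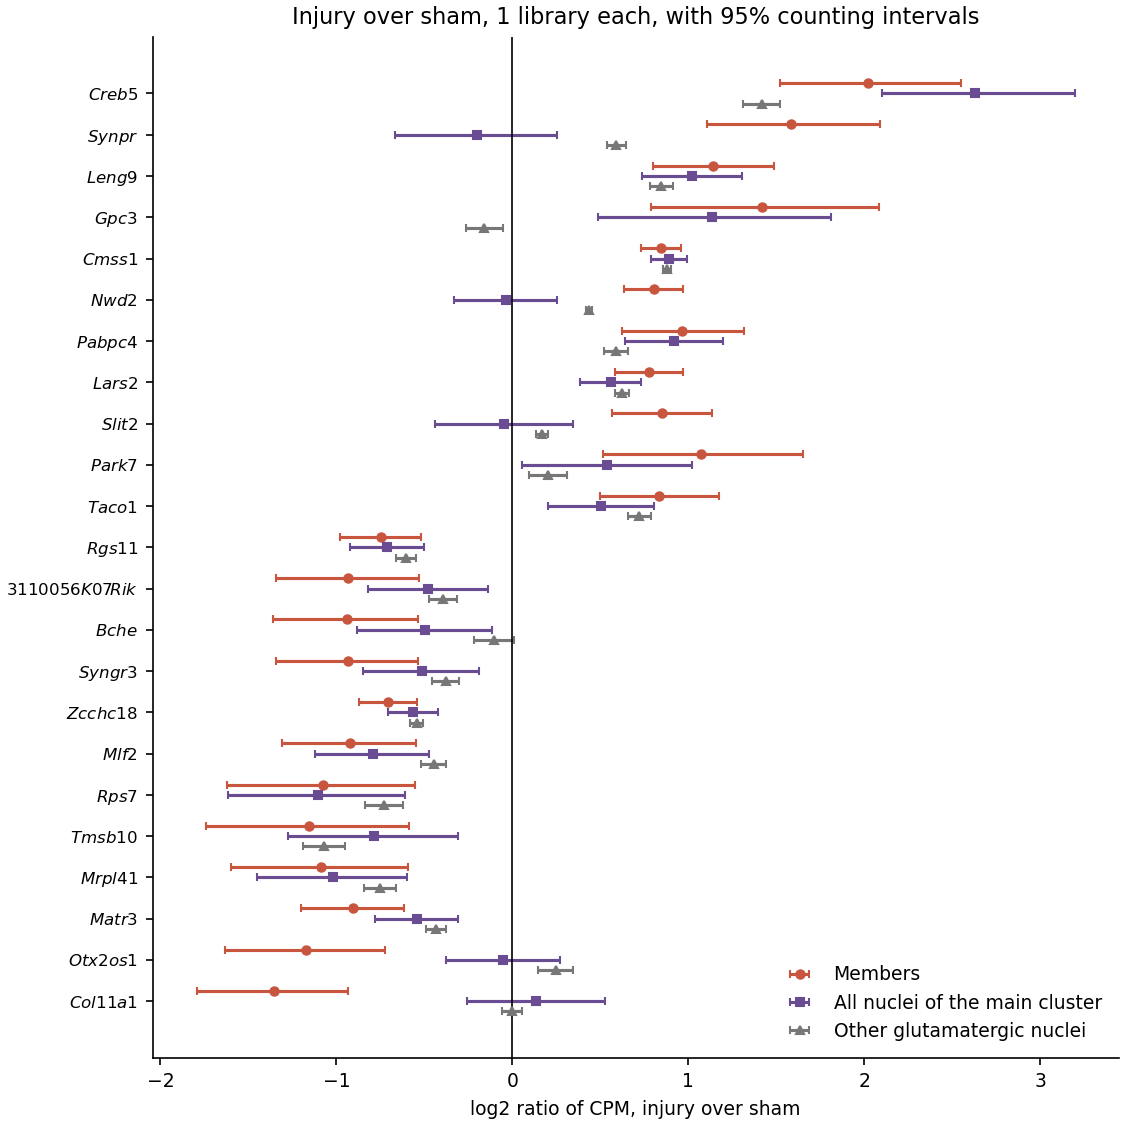
Points give the log2 ratio of CPM, injury over sham (horizontal axis), with 95% counting intervals, for 11 of the 12 genes highest and the 12 lowest by interval bound (vertical axis) in members (red), all nuclei of the main cluster (purple) and other glutamatergic nuclei (grey). Creb5 lies at 2.02 in members and 2.63 in the main cluster, while Synpr, Nwd2, Slit2, Col11a1 and Otx2os1 lie within 0.21 of 0 in the main cluster.

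By gene list, of 83 ribosomal protein genes 44 had 100 UMIs, of which 21 were lower in injury members and none higher, beside 2.15% higher and 3.43% lower over all genes. Their median log2 ratio was -0.48 in members and -0.42 in the other glutamatergic nuclei, where 14 of the 44 were lower. Rpl41 had 24.1 CPM in sham and 12.4 in injury members (-0.96, interval -1.47 to -0.47). Of 28 tested translation factors, 1 was higher (Eif3b, 0.56) and none lower, with a median of -0.04.

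Lists of neuronal function stayed near 0. The medians were 0.01 for 23 glutamate receptors, -0.06 for 18 GABA and glycine receptors, 0.03 for 30 firing channels, 0.02 for 23 presynaptic genes and 0.04 for 27 genes of the glutamatergic postsynapse. Within them, Glra3, a glycine receptor subunit, was the 1 gene lower of 18, beside 3.43% over all genes (48.2 CPM in sham and 31.0 CPM in injury, -0.64, interval -0.96 to -0.31), while in the other nuclei it had 41.3 and 43.4 CPM. Vamp2, a vesicle SNARE, was the 1 presynaptic gene lower of 23 (26.8 and 14.7 CPM, -0.86). No gene of the glutamate receptors, firing channels or postsynapse passed the fold in either direction.

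The counts of the following lists stand beside 2.15% higher and 3.43% lower over all genes. For guidance genes the median over 46 was -0.04, with Slit2 higher and the protocadherin gene Pcdh11x lower (219 and 149 CPM, -0.55, interval -0.70 to -0.40). Lgr5, a receptor of R-spondins, was the 1 Wnt gene of 21 past the fold (23.6 and 13.3 CPM, -0.83). Cck was the 1 neuropeptide of 5 (25.3 and 13.8 CPM, -0.88), and it was also lower in the other nuclei, at 22.0 and 13.5 CPM. Of 16 thalamic identity genes Slc17a7 was higher (10.6 and 16.1 CPM, 0.60, interval 0.04 to 1.18) and Cck lower, and the level of Slc17a7 depends on the choice of members, which read its UMIs.

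In the stress and oxidant lists, of 11 tested axon injury and stress genes Sox11, Hspa5 and Bax were lower (-0.50, -0.53 and -0.94) and none higher, beside 3.43% lower over all genes. Of 12 tested antioxidant genes and 3 immediate early genes none passed, with medians of 0.01 and 0.14. The BMP list (18 genes, median -0.04), adhesion receptors (11, -0.11, with Adgrg6 the 1 past the fold) and peptide receptors (7, -0.15) were close to the median over all genes. Adgrg6 was higher in injury, beside 2.15% higher over all genes, and its level depends on the choice of members, which read its UMIs. Amine and acetylcholine receptors (13) had a median of 0.13 with none past the fold.

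**Figure D5:**
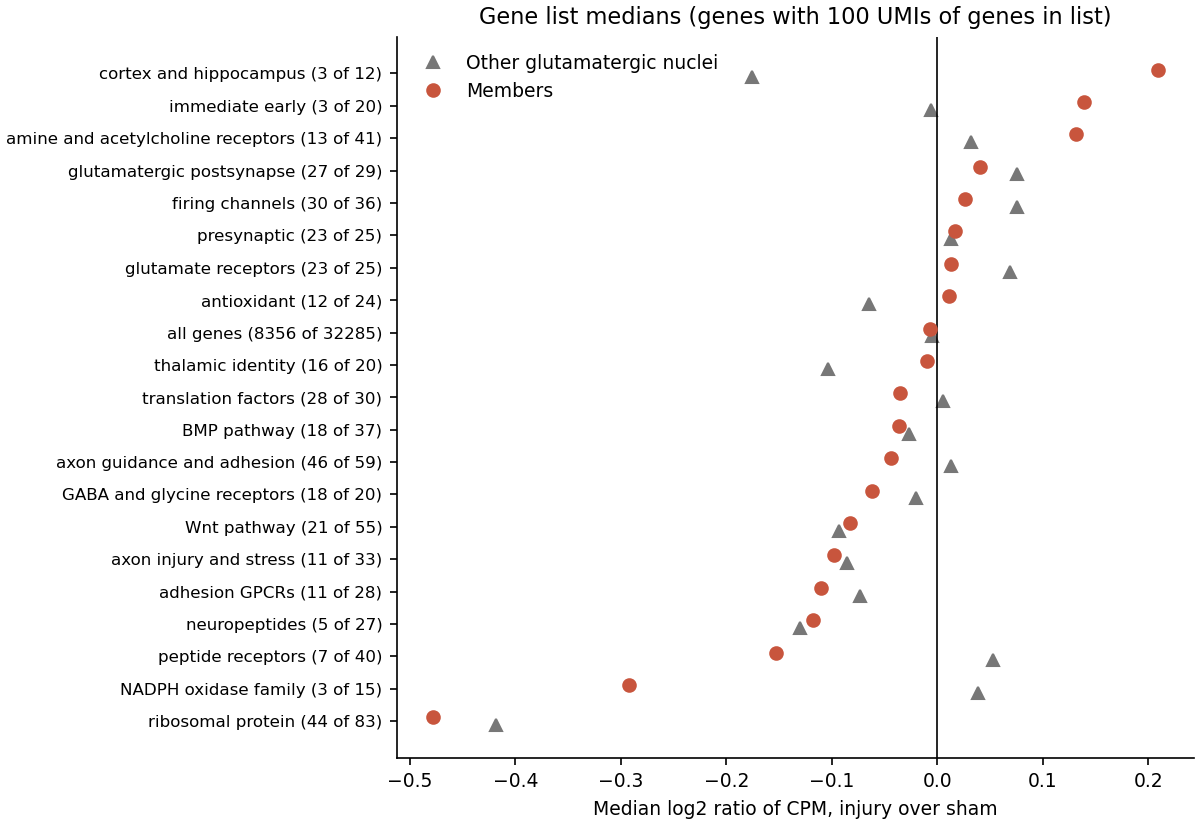
Points give, for each gene list with at least 3 tested genes (vertical axis, with tested genes of listed genes), the median log2 ratio of CPM of injury over sham (horizontal axis) in members (red circles) and other glutamatergic nuclei (grey triangles). Ribosomal protein genes lie lowest at -0.48 and -0.42, and the NADPH oxidase list has 3 genes, of which Nox4 was used in choosing the members.

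Among markers of other cell types, the oligodendrocyte list was higher and the endothelial list lower in injury members, with intervals apart, and the intervals of the other lists overlapped. All 6 genes of the oligodendrocyte list were detected, and they summed to 62.7 CPM in sham and 90.3 CPM in injury members, against 98.9 and 176 CPM in other glutamatergic nuclei and 14791 and 14398 CPM in oligodendrocytes. Without called doublets the members had 33.8 and 46.6 CPM, and all nuclei of the main cluster 37.2 and 50.1 CPM. The microglia list summed to 133 and 155 CPM in members and 113 and 120.4 CPM in the others, the astrocyte list to 364 and 353 CPM, with Slc1a3 and Gfap at 0 in sham, and the endothelial list to 11.3 and 4.90 CPM. Of 4 GABAergic genes, 1 was detected, at 13.5 and 12.6 CPM. Precursor (2.89 and 4.44 CPM) and mural (2.89 and 1.17 CPM) markers were near 0. In members without an oligodendrocyte-list UMI or a doublet call, the ratio was 1.25 for Leng9, 0.82 for Cmss1, -0.75 for Rgs11 and -0.74 for Zcchc18. The part of the endothelial and other lists in the differences was not tested.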

How the data were processed

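Nuclei of the ipsilateral thalamus were profiled by droplet-based 3′ single-nucleus RNA sequencing. The authors deposited raw UMI counts per gene and barcode, made with bcl2fastq and Cell Ranger 6.0.2 on GRCm38 (Seurat 4.0 is named for later steps). The annotation release and the use of introns and strand are not given in the sources used here. Names and coordinates came from GENCODE M21, which matched 32158 of 32285 genes. Each table had 500 UMIs as its lowest barcode total. Depth per library is given with the results.

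Nuclei with 200 to 7500 genes and at most 2% mitochondrial UMIs were kept. UMIs were summed over the nuclei of a set and divided by their total (CPM). Ratios are on the log2 scale. Calls used a prior of 0.5 UMI, at least 100 UMIs over both libraries and a log2 ratio of at least 0.5 in size. Intervals at 95% are exact Poisson for sums, and shares and ratios used the Clopper-Pearson interval. UMIs count molecules, and intervals cover counting error only. A floor is 3 UMIs. Doublets were scored with Scrublet in scanpy 1.11.5, called at 0.8% per 1000 nuclei within each library, and kept. Gate nuclei were clustered by Leiden (leidenalg 0.10.2; 2000 variable genes without the 6 markers, 30 components, 15 neighbours, resolution 1.0, with 0.5 and 2.0 as alternatives). Oligodendrocytes were nuclei with at least 5 UMIs of their list. Other settings tried were TMM (edgeR 4.0.16) and median-of-ratios scaling, other filters, priors and rules, thinning, and leaving out doublets. Sums, ratios and the rule were checked on simulated counts.

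Named genes were the 6 markers, the 25 highest and 10 lowest genes of members over other glutamatergic nuclei (at least 50 UMIs in each library, ranked by the smaller ratio of the libraries, rule genes left out), the 12 highest and 12 lowest injury-to-sham ratios by the interval bound nearest 0, and list genes past the fold. Other genes were named after their values were seen. Members, lists and tests were chosen with earlier results of these data known. Ddit3 of the stress list had no row by that name. A named gene among the 12 highest and a gene of the channel list are not reported here.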

Additional observations from a re-analysis of the deposited data

Results flagged for a closer look

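In 2 of the 24 genes named for injury over sham, the ratio of injury to sham pointed one way in members and the other way in the remaining glutamatergic nuclei. Gpc3 had a log2 ratio of 1.42 (0.79 to 2.08) in members and -0.16 (-0.26 to -0.05) in the others. It was detected in 13 sham and 25 injury members, with 44.8% of its sham UMIs from 1 nucleus. Otx2os1 had -1.17 (-1.63 to -0.72) in members and 0.25 (0.15 to 0.35) in the others. Over all nuclei of the main cluster the ratio was 1.14 (0.49 to 1.81) for Gpc3 and -0.05 (-0.38 to 0.27) for Otx2os1. With 1 library per group, the difference between the sets of nuclei was not tested for either gene. Among the marker genes, Kcnk13 had -0.42 (-0.64 to -0.21) in members and 0.36 (0.26 to 0.47) in the others, and Gpc5 had -0.21 (-0.28 to -0.15) and 0.09 (0.06 to 0.11), also without a test of the difference. Over all nuclei of the finer branches, Kcnk13 had overlapping intervals between libraries. It had 140 CPM in sham and 130 in injury in the branch with Ntf3, and 112 and 120 CPM in the branch with more Gpc5.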

How the results depend on the processing

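No paired analysis was possible because there was only 1 library per group. The member share depended on the rule. With 2 summed UMIs it was 4.18% in sham and 3.82% in injury, with 5 summed UMIs 2.16% and 1.79%, with 3 genes detected 1.56% and 1.20%, and after thinning 0.655% and 0.467%. Leaving out Nox4 gave 2.01% and 1.81%, Kcp 2.65% and 2.51%, Adgrg6 2.39% and 1.73%, Dkk2 2.82% and 2.42%, and Qrfpr 2.94% and 2.50%. In nuclei chosen without the gene itself, levels in sham and injury were 156 and 103 CPM for Nox4, 45.0 and 31.9 for Kcp, 58.2 and 85.2 for Adgrg6, 37.4 and 21.2 for Dkk2, and 32.4 and 26.9 for Qrfpr. At resolution 2.0 the cluster with most members held 30.2% of them.

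Genes past the fold numbered 180 higher and 287 lower of 8356 tested, and 2343 and 2520 of 18256 with no filter on low counts, 62 and 79 of 5737 at 200 UMIs, 75 and 78 of 2989 after thinning, and 108 and 65 of 2337 in members of the second cluster. Without oligodendrocyte-list UMIs and called doublets, 150 were higher and 167 lower of 5128, or 2.93% and 3.26%. Median-of-ratios scaling gave 234 higher and 227 lower. The median of the axon injury and stress list was 0.21 in members of the second cluster. The alternatives of second-cluster members, of all main-cluster nuclei and free of oligodendrocyte UMIs were chosen after seeing the data. The alternative of main-cluster members only was planned, with 141 higher and 209 lower of 5939 (2.37% and 3.52%).

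Some named genes had the opposite sign when nuclei were restricted. In main-cluster members the log2 ratio was -0.30 for Nwd2 and -0.41 for Slit2, and over the whole main cluster it was -0.20 for Synpr, -0.036 for Nwd2, -0.047 for Slit2 and 0.14 for Col11a1. In members of the second cluster it was -1.73 for Synpr, -1.73 for Gpc3, -0.29 for Nwd2, -0.15 for Park7, 1.44 for Col11a1, 0.70 for Otx2os1 and 0.015 for Mrpl41. These genes had 0 to 10 UMIs per library there, so the values rest on few UMIs and the prior of 0.5 UMI and show no direction. The cause was not tested. With 1 pool of 4 mice per group, a difference between libraries cannot be told apart from one between the pools.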

Other observations

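Some genes differed between the libraries over all 976 nuclei of the main cluster but are not among the genes named for members. They were chosen after their values were seen. Klhl1, which encodes an actin-binding kelch protein of neurons, had 100 UMIs in sham and 31 in injury (18.9 and 6.04 CPM), a log2 ratio of -1.65 (-2.28 to -1.05), against 0.20 (0.15 to 0.24) in other glutamatergic nuclei and 0.24 (-0.12 to 0.61) in members. Its UMIs in the main cluster came from 28 sham and 20 injury nuclei, with 21% and 19.4% of them from 1 nucleus. Il1rapl2, a synaptic adhesion gene, had 126 and 75.2 CPM (-0.74, interval -0.93 to -0.56) there, but a ratio of 0.59 (0.41 to 0.78) in members. The member interval of Klhl1 includes 0, while Il1rapl2 had opposite signs in members and in the main cluster.

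Rgs6, a regulator of G protein signalling, had 231 CPM in sham and 334 in injury over the main cluster (0.53, interval 0.42 to 0.64), with 0.30 in members and 0.13 in the others. The motor gene Myo5b had 13.6 and 27.9 CPM (1.03, interval 0.62 to 1.46), and was also higher in the others (0.97). The main cluster made up 5.89% of the sham gate (511 nuclei, interval 5.40 to 6.41) and 4.87% of the injury gate (465 nuclei, 4.44 to 5.32), and the second cluster 4.97% (4.52 to 5.45) and 3.78% (3.41 to 4.18). Clusters of called doublets took part of the same gate, and how far they bear on these shares was not tested.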
